A study of Mus musculus with 15 samples.

Results

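The comparison described here is between unstimulated bone marrow-derived dendritic cells (BMDCs) of 2 Mysm1 genotypes, taken as the 4 libraries titled Δ/DN US and the 4 titled Δ/+ US among the 15 RNA sequencing libraries of the series. BMDCs are cells grown from mouse bone marrow with the growth factor GM-CSF, and such cultures hold dendritic cells together with macrophage-like cells. Every mouse carried a tamoxifen-inducible Cre recombinase (CreERT2), had received tamoxifen, and had lost 1 floxed Mysm1 allele. The other allele was wild type in Δ/+ (Mysm1 fl/+ before tamoxifen) and encoded a catalytically inactive protein in Δ/DN (Mysm1 fl/DN). The marrow donors were more than 12 weeks past tamoxifen, and the cells grew for 9 days with 20 ng/mL GM-CSF. US libraries were then held for another 18 h without stimulus, and the 3 Δ/+ LPS and 4 Δ/DN LPS libraries, which served here only to estimate the spread and for side-by-side values, were held with 10 ng/mL lipopolysaccharide. No wild-type mice without the deleted allele were among the libraries used, and neither the mice's age nor whether each culture came from its own mouse was given in the sources used here. The p-values therefore measure the spread between these libraries, US and LPS pooled, and not a known spread between mice. The 15 libraries were fitted as independent, although most cultures gave both a US and an LPS library.

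The direction of every difference rests on the sample labels. The series description gives group C to Δ/DN and group A to Δ/+, whereas the samples titled Δ/+ carry the letter C and those titled Δ/DN the letter A. All directions below follow the sample titles; if the description holds instead, each of them is the opposite. Reads summed over Mysm1 do not separate the inactive from the wild-type allele, so they are no check of the labels. Mysm1 was at 46.3, 51.3, 49.9 and 54.1 CPM (reads scaled to library size) in Δ/+ replicates 1 to 4 and at 45.9, 42.0, 28.1 and 48.9 CPM in Δ/DN replicates 1 to 4. The groups overlapped, and the log2 difference (Δ/DN minus Δ/+ throughout) was -0.28 ± 0.14 (SE, adjusted p = 0.213).

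MYSM1 is a deubiquitinase that removes ubiquitin from histone H2A, a mark placed by Polycomb complexes and linked to gene silencing. It is known for its part in blood stem cell maintenance, in lymphoid and myeloid development, and in restraint of p53. Mysm1 loss in mice is associated with loss of blood lineages, and the p53 response is held to account for much of it.

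The 8 US libraries held between 37256651 and 93291582 reads, so 3 reads, the floor used here, corresponded to 0.0322 to 0.0805 CPM. Library names carried a 2 or a 3, here called library set, whose meaning the labels do not give. Set 2 held 3 Δ/+ US and 2 Δ/DN US libraries, and set 3 held Δ/+ replicate 4 and Δ/DN replicates 3 and 4. Δ/DN culture 4 was the 1 female culture by Xist and Y-linked reads. Δ/DN replicate 3 stood apart by its share of the 7SL RNA, 10.4% of reads against 3.41% to 5.66% in the other US libraries, and by Ddx3y at 1.94 CPM where the other cultures with Y-linked reads had 47.2 to 79.9. In the principal components of the 8 libraries the first axis held 31.5% of the variance. Δ/+ libraries lay between -65.0 and -7.21 on it, and Δ/DN replicates 1, 2 and 4 lay between 33.2 and 64.4. Δ/DN replicate 3 lay at -15.5, among the Δ/+ libraries, and alone at 78.2 on the second axis, which held 17.9%.

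**Figure D1:**
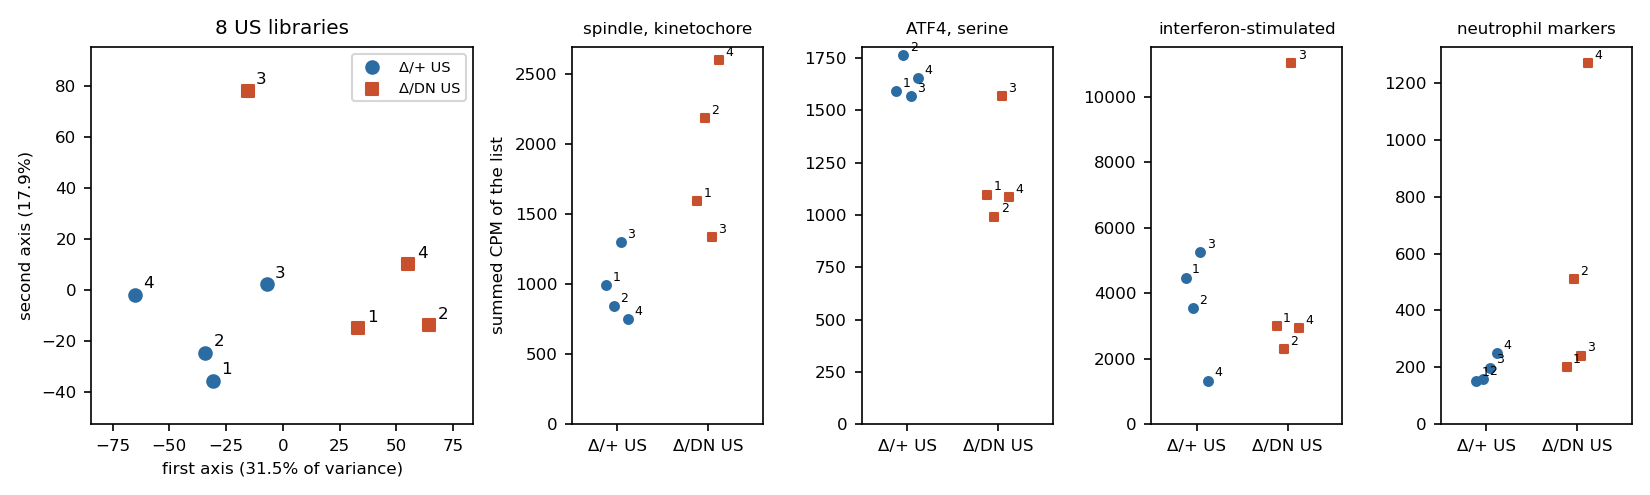
The left panel places the 8 US libraries on the first 2 principal components of log2 CPM, numbered by replicate, and the other panels give the summed CPM of 4 gene lists in each library (circles Δ/+ US, squares Δ/DN US). Δ/DN replicate 3 lies apart at 78.2 on the second axis and has the highest summed interferon-stimulated level, 11046 CPM, while Δ/DN replicate 4 has the highest neutrophil marker sum, 1271 CPM.

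Of 20865 genes tested, 2184 (10.5%) differed at an adjusted p under 0.05. Of these, 1046 (5.01%) rose in Δ/DN and 1138 (5.45%) fell. The directions differed in kind. Genes that rose had a median log2 difference of 0.98, and 502 of them rose by at least 1 log2 unit. Genes that fell had a median of -0.47, and 155 of them fell by at least 1. The median level over the 8 libraries was 9.95 CPM for genes that rose, 40.3 CPM for those that fell and 5.43 CPM for all tested. For 1389 of the 2184 (63.6%) all 4 Δ/DN libraries lay on the same side of all 4 Δ/+ libraries, as they did for 12.5% of all genes tested.

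**Figure D2:**
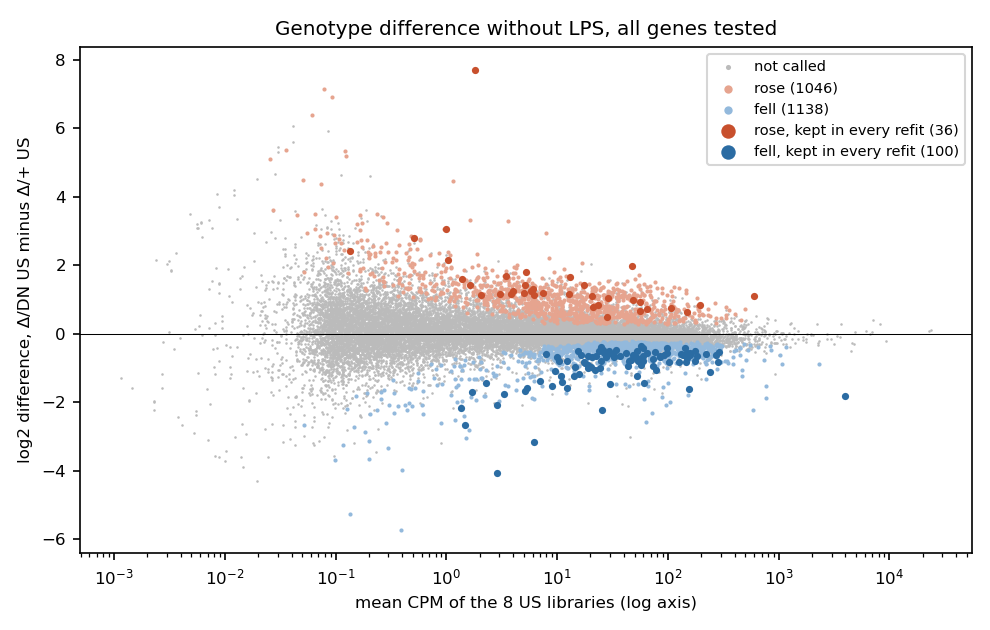
Each point is a gene, with its mean CPM in the 8 US libraries on a log axis and its log2 difference, Δ/DN US minus Δ/+ US, on the other. Pale colours mark the 1046 genes that rose and the 1138 that fell. Full colours mark the 36 and 100 that kept their call in every refit with the library set term. The falls gather at higher CPM than the rises.

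The calls depended on single libraries. Left out in turn, Δ/DN replicate 3 raised the number to 3403 and Δ/+ replicate 4 lowered it to 174. Without Δ/DN replicate 2 there were 350 calls, without Δ/+ replicate 2 there were 549, without Δ/DN replicate 4 there were 882, and without Δ/+ replicate 1 there were 1418. Among the genes that rose, Δ/+ replicate 4 was the lowest Δ/+ library for 62.0% and Δ/+ replicate 3 the highest for 73.1%. Δ/DN replicate 3 was the lowest Δ/DN library for 61.3% of these. Among the genes that fell, Δ/+ replicate 4 was the highest Δ/+ library for 80.8%, and Δ/DN replicate 3 the highest Δ/DN library for 63.4%. So in both directions Δ/+ replicate 4 most often stood farthest from the other genotype, and Δ/DN replicate 3 nearest to it.

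**Figure D3:**
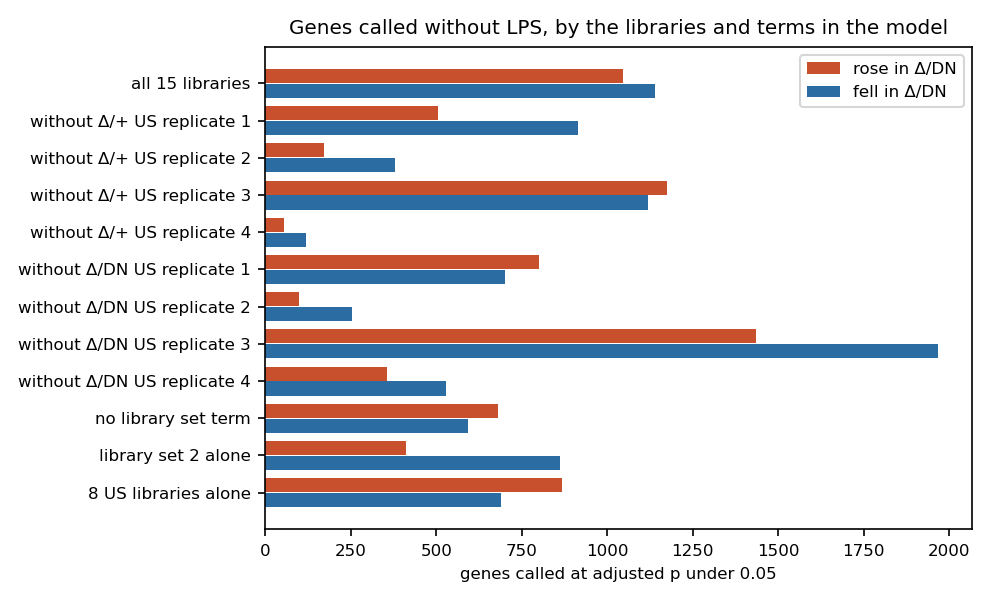
Bars give the number of genes called in each direction with all libraries, without each US library in turn, without the library set term, within library set 2 and with the 8 US libraries alone. Between 174 (without Δ/+ replicate 4) and 3403 genes (without Δ/DN replicate 3) were called in the refits that leave out a library.

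A core of 136 genes (0.652% of those tested) was called in the same direction in all 8 of these refits and within library set 2, where 6.01% of 21153 tested genes were called (1.94% higher and 4.07% lower). Of these, 36 rose and 100 fell, and 128 were protein coding. The 8 libraries did not overlap between genotypes for 125 of the 136 (12.5% of all genes tested), and 131 were also called without the library set term. The 136 were picked by calls in these same libraries, so these counts are no separate support for them. With the set term left out and each US library left out in turn, 44 of the 136 kept their call in all 8 refits, 14 that rose and 30 that fell. The 12 largest differences in each direction follow, among genes with a mean of at least 1 CPM. Among these, E2f8, Tcf19, Mastl, C1qtnf6, Hrh2, Sema3c, Epha4, Tgfbr3, Thbs1, Gpat3 and B3galt2 belonged to the 44. Cdkn2a, Jaml, St14, Frmd4b, Bmp1, Prrg4, Fmr1nb, Cd14, Hilpda, Fosl1, Nrbp2, Gal and Zfp503 did not. Nor did Gins2, Polr1a, Bdp1, Atf4, Egln3 and Phlda1, core genes given further below.

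Cdkn2a, which encodes the cell cycle inhibitors p16INK4a and p19ARF from overlapping transcripts, was among the genes that rose most. Its levels were 0.305, 0.346, 0.694 and 0.279 CPM in Δ/+ and 2.04, 1.36, 1.56 and 1.69 CPM in Δ/DN. Every Δ/DN library was above every Δ/+ library. The log2 difference was 2.17 ± 0.32 (SE, adjusted p = 0.0039), and counts per gene do not separate the 2 products. E2f8, an atypical E2F repressor of cell cycle genes, was at 8.84, 8.94, 13.6 and 7.56 CPM in Δ/+ and at 20.2, 32.3, 17.2 and 31.9 CPM in Δ/DN (1.44 ± 0.23, adjusted p = 0.00538). Tcf19, a growth-associated chromatin factor induced at the G1/S transition, was at 1.35, 1.40, 2.36 and 1.44 CPM against 4.50, 7.05, 3.90 and 5.39 CPM (1.68 ± 0.28, adjusted p = 0.00538). Mastl, the kinase that holds a mitotic phosphatase in check, rose by 1.23 ± 0.20 (adjusted p = 0.00487), from 2.47 to 4.39 CPM in Δ/+ libraries to 6.05 to 10.2 CPM in Δ/DN libraries. The groups did not overlap for any of these genes, and Δ/+ replicate 3 was the highest Δ/+ library for each.

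The other 8 genes that rose were Jaml, St14, Frmd4b, Bmp1, Prrg4, C1qtnf6, Hrh2 and Fmr1nb. Jaml, an adhesion molecule of leukocytes that binds the coxsackievirus and adenovirus receptor, was at 30.5, 16.7, 30.4 and 9.58 CPM in Δ/+ and at 57.4, 112, 54.2 and 65.8 CPM in Δ/DN (1.99 ± 0.28, adjusted p = 0.0039). St14, the membrane serine protease matriptase, was at 1.23 to 3.71 CPM in Δ/+ and at 5.44 to 10.5 CPM in Δ/DN (1.81 ± 0.31, adjusted p = 0.00677). Frmd4b, a scaffold protein of the FERM family, was at 7.51, 6.63, 11.1 and 3.72 CPM against 20.1, 25.8, 15.4 and 15.3 CPM (1.65 ± 0.19, adjusted p = 0.000856). Each of these was higher in all 4 Δ/DN libraries than in any Δ/+ library. Bmp1, the procollagen C-proteinase, rose by 1.59 ± 0.30 and Hrh2, the histamine H2 receptor, by 1.25 ± 0.23 (adjusted p = 0.00926 and 0.00834). Prrg4, a vitamin K-dependent transmembrane protein, rose by 1.42 ± 0.25, and C1qtnf6, a secreted protein with a C1q-like domain, by 1.30 ± 0.17 (adjusted p = 0.00749 and 0.00156). These 4 genes lay under 11 CPM in every US library, and their groups did not overlap either.

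The largest fitted rise, of the testis-associated gene Fmr1nb on the X chromosome, was not shared by the Δ/DN group. It was at 5.42 and 8.88 CPM in Δ/DN replicates 1 and 2, and had 0 reads in Δ/DN replicates 3 and 4. In Δ/+ it was at 0.0436, 0.0477, 0 and 0.0116 CPM, 7 reads in all. The groups overlapped. The model with library set gave 7.69 ± 0.88 (adjusted p = 0.000856), and without the set term the adjusted p was 0.115. The same cultures had it with LPS, at 10.7 and 11.7 CPM in Δ/DN replicates 1 and 2 and at 0.014 and 0 CPM in replicates 3 and 4. It thus marks the 2 Δ/DN cultures of library set 2.

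Sema3c had the largest fall of the core genes and Epha4 the next. Sema3c, a secreted semaphorin, was at 4.60, 6.35, 2.92 and 7.60 CPM in Δ/+ and at 0.218, 0.157, 1.01 and 0.259 CPM in Δ/DN (-4.06 ± 0.53, adjusted p = 0.00228). Epha4, a receptor for ephrins, was at 17.5, 13.2, 7.63 and 5.83 CPM against 1.61, 0.529, 1.20 and 1.53 CPM (-3.14 ± 0.46, adjusted p = 0.00487). Tgfbr3, the TGF-beta co-receptor betaglycan, was at 31.0, 52.3, 25.5 and 53.9 CPM against 9.81, 6.55, 13.7 and 8.72 CPM (-2.22 ± 0.24, adjusted p = 0.000783). No Δ/DN library reached the lowest Δ/+ library for any of the 3.

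Thbs1, the matrix protein thrombospondin 1, was the most abundant of the core genes. It was at 4920.4, 7859, 4489 and 7419 CPM in Δ/+ and at 1407, 1895, 2268 and 1511 CPM in Δ/DN (-1.83 ± 0.21, adjusted p = 0.000805). Cd14, the co-receptor that hands lipopolysaccharide to TLR4, was at 192, 249, 166 and 304 CPM against 58.1, 55.0, 161 and 61.5 CPM (-1.61 ± 0.27, adjusted p = 0.00642). Δ/DN replicate 3 lay just under the lowest Δ/+ library, and the other 3 Δ/DN libraries lay near 60 CPM or lower. Hilpda, a lipid droplet protein induced by hypoxia, fell by 1.66 ± 0.25 on the log2 scale (adjusted p = 0.00422), and Gpat3, an enzyme of triglyceride synthesis, by 1.76 ± 0.25 (adjusted p = 0.00302). Fosl1, an AP-1 subunit, was at 1.30 to 4.32 CPM in Δ/+ and at 0.376 to 0.793 CPM in Δ/DN (-2.18 ± 0.27, adjusted p = 0.000939).

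The rest of the 12 were Nrbp2, Gal, Zfp503 and B3galt2. Nrbp2, a pseudokinase, had a difference of -2.66 ± 0.47 (adjusted p = 0.00728), and B3galt2, a galactosyltransferase, one of -1.57 ± 0.26 (adjusted p = 0.00665). The groups overlapped for Gal, the neuropeptide galanin, where Δ/+ was at 3.95, 3.66, 2.80 and 5.20 CPM and Δ/DN at 0.813, 0.259, 3.75 and 2.53 CPM. The call of Gal (adjusted p = 0.0101) was lost without the library set term (adjusted p = 0.365). The groups also overlapped for Zfp503, a zinc finger repressor, by Δ/DN replicate 3 at 4.75 CPM against the lowest Δ/+ value of 4.59 CPM.

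**Figure D4:**
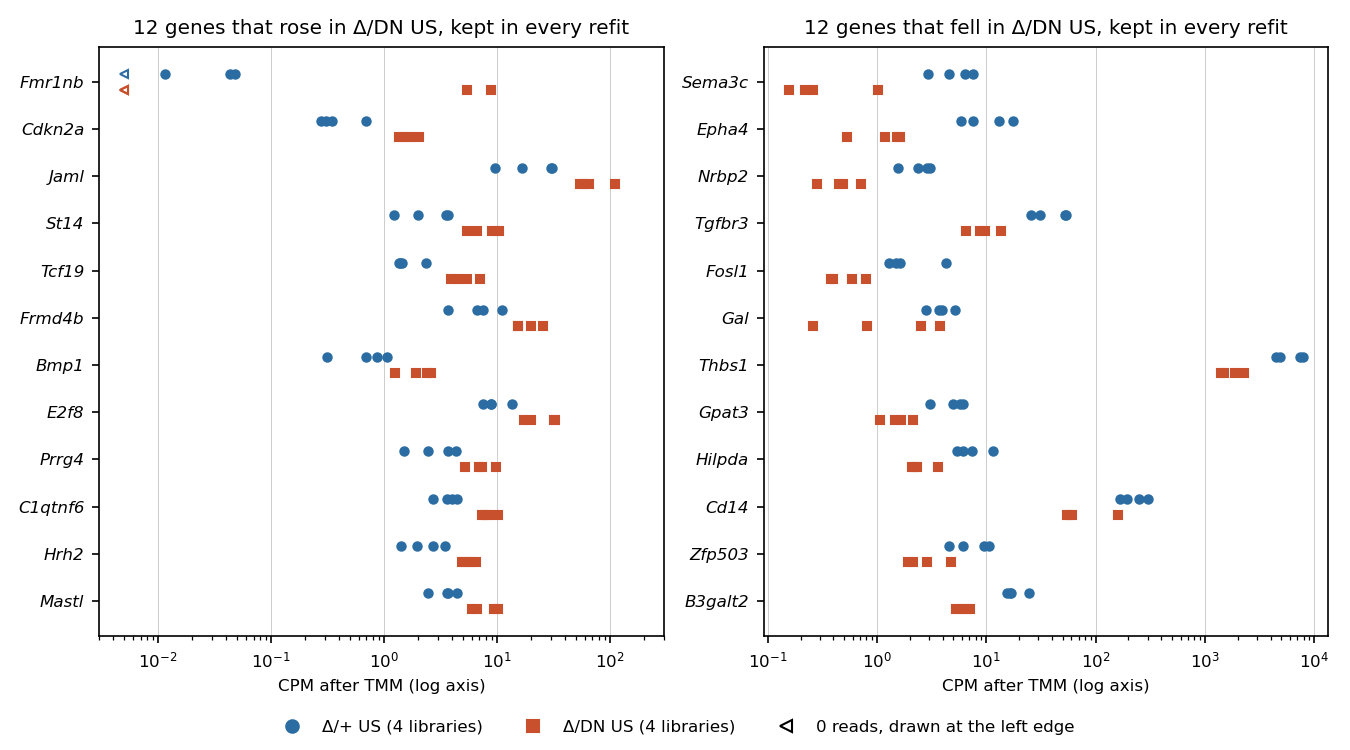
Each row is a gene and each point a US library (circles Δ/+, squares Δ/DN), in CPM on a log axis, with 0 reads drawn at the left edge. The 12 largest rises and falls among genes called in every refit with the library set term are shown. The groups stand apart for all but Fmr1nb, with 2 Δ/DN libraries at 0 reads, Gal and Zfp503.

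Another 4 genes outside these 24 were picked after their values were seen, for the small spread within each genotype. Lipo3, a lipase of the lipase O family, was at 16.2, 16.0, 15.5 and 15.9 CPM in Δ/+ and at 5.39, 5.55, 6.84 and 6.62 CPM in Δ/DN. This gave the smallest adjusted p of the comparison, 2.59e-05, with a difference of -1.41 ± 0.10, and the neighbouring Lipo2 was at -1.45 ± 0.17. The 2 genes are close paralogs and may share reads. Slc7a1, the cationic amino acid transporter that imports arginine and lysine, was at 99.8, 113, 104 and 105 CPM against 54.7, 44.4, 56.9 and 48.2 CPM (-1.05 ± 0.10, adjusted p = 0.00021). Pls3, an actin-bundling plastin, fell from 35.7 to 57.2 CPM in Δ/+ to 14.3 to 18.2 CPM in Δ/DN (-1.46 ± 0.15, adjusted p = 0.000477). Gnl3, the nucleolar GTPase nucleostemin, was at 48.7, 52.9, 50.9 and 69.1 CPM against 32.8, 29.3, 37.0 and 33.7 CPM (-0.79 ± 0.09, adjusted p = 0.000783). None of these groups overlapped.

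The abundant called genes, ranked by CPM per kilobase of exon, are given next for those with at least 0.5 log2 units. Those that rose were Ccl17, a chemokine of dendritic cells that draws CCR4-bearing T cells, Ptma (prothymosin alpha, a chromatin-associated protein), Hmgn2-ps1, Cd52 and Plet1. Ccl17 was at 454, 349, 568 and 245 CPM in Δ/+ and at 691, 572, 655 and 455 CPM in Δ/DN (0.72 ± 0.21, adjusted p = 0.0439). Its groups overlapped, and its call was kept in 1 of the 8 refits. Ptma rose by 0.57 ± 0.13 and kept its call in 5 refits, and Cd52, a small surface glycoprotein of leukocytes, rose by 0.54 ± 0.12 and kept it in 6. Hmgn2-ps1 (0.73 ± 0.19) is a pseudogene whose reads cannot be told from those of its parent gene. Plet1, a surface protein of dendritic cells and epithelia, rose by 0.79 ± 0.20, as did the antisense Plet1os by 1.23 ± 0.26, and reads of that pair cannot be told apart without strand.

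The abundant genes that fell were Thbs1, Klk1b11, Fn1, Btg1 and Tgm2. Fn1, the matrix protein fibronectin, was at 2382, 3551, 3438 and 2861 CPM in Δ/+ and at 2100.4, 1463, 1424 and 1153 CPM in Δ/DN (-0.89 ± 0.20, adjusted p = 0.0162). Tgm2, the transglutaminase that crosslinks matrix proteins, was at 1147, 1452, 723 and 1515 CPM against 322, 239, 616 and 190.3 CPM (-1.87 ± 0.35, adjusted p = 0.0101). Both were lower in all 4 Δ/DN libraries. Btg1, an antiproliferative gene, was at 1042 to 1574 CPM in Δ/+ and at 625 to 1159 CPM in Δ/DN, so that the groups overlapped (-0.62 ± 0.18, adjusted p = 0.0395). Klk1b11, a kallikrein of a large family of near copies, had a difference of -1.03 ± 0.28 (adjusted p = 0.0388), also with overlap.

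Gene lists by function gave the count of called members, read beside the 5.01% of all tested genes that rose and the 5.45% that fell. The lists of DNA synthesis and division had rises and 0 falls. In the replication fork list 32 of 43 genes rose and 0 fell, with a median log2 difference of 0.86 where the median of all genes was 0.01. In the histone list 32 of 38 rose (median 1.12), in homologous recombination and the Fanconi pathway 16 of 28 (1.00), in the spindle and kinetochore 25 of 50 (1.09) and in deoxynucleotide synthesis 7 of 13 (0.75). Gins2, a subunit of the replicative helicase complex, was at 3.77, 2.58, 3.32 and 2.75 CPM in Δ/+ and at 5.78, 6.73, 7.19 and 7.85 CPM in Δ/DN (1.19 ± 0.20, adjusted p = 0.00538), and was the only member of these 5 lists in the core of 136. Tk1, the S phase thymidine kinase, was at 1.00 to 2.90 CPM against 4.18 to 9.08 CPM (1.93 ± 0.41, adjusted p = 0.0142).

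In the list of G1 cyclins, E2F factors and cyclin-dependent kinase inhibitors 11 of 28 rose and 1 fell. Those that rose included the E2F genes E2f1, E2f2, E2f7 and E2f8, the cyclins Ccne1, Ccne2 and Ccnd3, the pocket protein gene Rbl1, and the inhibitors Cdkn2a, Cdkn2c and Cdkn2d. Cdk6 was the member that fell, by 0.41 on the log2 scale. Genes that drive and genes that restrain the cell cycle were thus both among those that rose. The summed level of the spindle list was 993, 841, 1302 and 748 CPM in Δ/+ and 1594, 2186, 1336 and 2599 CPM in Δ/DN, so Δ/+ replicate 3 and Δ/DN replicate 3 lay close together.

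These counts were fragile. Without Δ/+ replicate 4 the replication fork list had 1 called gene, and the deoxynucleotide, spindle, recombination and histone lists had 0. Without Δ/DN replicate 2 the fork list had 3 called genes and the spindle list 0. Without both libraries of Δ/DN culture 3, 45 of 50 spindle genes and 34 of 38 histone genes rose, and 1 histone gene fell. Within library set 2, 17 of 43 replication fork genes, 11 of 50 spindle genes and 4 of 38 histone genes rose.

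The histone genes showed as a block along the genome. On chromosome 13, 9.24% of tested genes rose, the highest share of any chromosome. Of the 55 replication-dependent histone genes tested there, 50 rose and 0 fell, and of the other 822 genes 3.77% rose. H4c1 was at 38.3, 27.8, 42.9 and 25.8 CPM in Δ/+ and at 60.6, 80.7, 68.3 and 77.2 CPM in Δ/DN (1.14 ± 0.21, adjusted p = 0.0088). These transcripts lack poly(A) tails and are retained by libraries made by ribosomal RNA depletion. Their copies are near identical, so reads may be split among them, and their counts are not independent.

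In the lists of ribosome and protein production falls outnumbered rises, and the medians were small. In the list of RNA polymerase I and III, which make ribosomal and transfer RNA, 10 of 36 fell and 1 rose (median -0.18). Polr1a, the largest subunit of polymerase I, was at 62.6, 77.1, 76.0 and 73.2 CPM in Δ/+ and at 49.0, 45.4, 41.7 and 49.1 CPM in Δ/DN (-0.64 ± 0.11, adjusted p = 0.00749). Bdp1, a subunit of the polymerase III factor TFIIIB, was at 102 to 123 CPM against 81.0 to 86.9 CPM (-0.43 ± 0.07, adjusted p = 0.00441). Both were lower in every Δ/DN library. Among translation factors 11 of 44 fell and 0 rose (median -0.17), with Eif5, which triggers start codon recognition, at -0.58 ± 0.09. Among aminoacyl-tRNA synthetases 6 of 20 fell and 0 rose (median -0.16), with Cars, the cysteinyl enzyme, at -0.48 ± 0.08. In the MYC network, Ncl (nucleolin, -0.53 ± 0.09) and Mga fell and Mxd3 rose, of 15 tested. Leaving out single libraries left between 2 and 11 of the polymerase genes, between 1 and 17 of the translation factors and between 1 and 8 of the synthetases called lower, in each case fewest without Δ/+ replicate 4.

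The following 10 core genes that fell, which encode factors of ribosome assembly, were in no list and were picked after their values were seen, so their number says nothing of a group. Nolc1, a nucleolar phosphoprotein, was at 55.4, 66.9, 64.3 and 84.3 CPM in Δ/+ and at 41.9, 38.1, 40.8 and 40.5 CPM in Δ/DN (-0.78 ± 0.10, adjusted p = 0.000915). Mdn1, the large ATPase that strips assembly factors from the large subunit precursor, was at 167 to 211 CPM against 95.9 to 120.3 CPM (-0.81 ± 0.11, adjusted p = 0.00254). Nop58, a core protein of the box C/D particles that methylate ribosomal RNA, was at 52.3 to 75.4 CPM against 37.7 to 44.5 CPM (-0.68 ± 0.09, adjusted p = 0.00247). All 4 Δ/DN libraries, replicate 3 included, lay below all Δ/+ libraries for each. The same held for Tsr1 (-0.75), Ppan (-0.80), Noc3l (-0.68), Heatr1 (-0.62), Utp20 (-0.56), Pwp2 (-0.64) and the helicase Ddx21 (-0.57). These falls were small beside those of Sema3c or Epha4, with little spread between libraries.

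ATF4 is the transcription factor of the integrated stress response, and in the list of its targets 8 of 24 fell and 1, Sesn2, rose (median -0.37). The number that fell was 2 without Δ/+ replicate 4, 3 without Δ/DN replicate 2, 4 without Δ/+ replicate 2 and 11 at most. Asns, asparagine synthetase, was at 27.2, 29.3, 22.3 and 20.2 CPM in Δ/+ and at 12.4, 12.0, 14.5 and 14.3 CPM in Δ/DN (-0.92 ± 0.14, adjusted p = 0.00441). Atf4 itself was at 152, 157, 136 and 175 CPM against 101, 89.9, 130.2 and 102 CPM (-0.60 ± 0.10, adjusted p = 0.00497). Slc7a11, the cystine transporter, was at 605 to 739 CPM against 308 to 489.5 CPM (-0.75 ± 0.15, adjusted p = 0.0101). The summed level of the list was 1569.6 to 1764 CPM in Δ/+ and 1097, 992, 1568 and 1086 CPM in Δ/DN, so Δ/DN replicate 3 lay at the lower edge of Δ/+. Of 24 amino acid transporters 7 fell and 3, Slc38a9, Slc43a3 and Slc7a3, rose, and 2 fell without Δ/+ replicate 4 and 3 without Δ/DN replicate 2. Of 20 genes of arginine, nitric oxide and polyamine metabolism 5 fell, among them Srm, spermidine synthase (-0.80 ± 0.15), and 2 rose, among them Gatm (0.97 ± 0.21), and 0 fell without either of these libraries.

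Hypoxia-associated genes gave the highest share of falls. In the list of HIF factors and hypoxia targets 11 of 32 fell and 0 rose (median -0.32). Vegfa, the endothelial growth factor, was at 123, 175, 81.8 and 173 CPM in Δ/+ and at 43.5, 35.8, 52.0 and 22.5 CPM in Δ/DN (-1.85 ± 0.32, adjusted p = 0.00834). Egln3, an oxygen-sensing prolyl hydroxylase, was at 13.3, 13.5, 8.22 and 16.1 CPM against 3.51, 3.39, 6.13 and 7.87 CPM (-1.53 ± 0.22, adjusted p = 0.00346). The transcription factor genes Hif1a (-0.64), Epas1 (-1.89) and Arnt (-0.23) fell too. Without Δ/+ replicate 4 there was 1 such call, without Δ/DN replicate 2 there were 2 and without Δ/+ replicate 2 there were 3.

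In the list of ERK feedback, early response and EGF-type ligand genes 7 of 32 fell and 0 rose (median -0.35). Phlda1, an ERK-responsive regulator, was at 22.7, 25.2, 23.9 and 28.0 CPM in Δ/+ and at 11.6, 11.3, 18.4 and 11.9 CPM in Δ/DN (adjusted p = 0.000856). Fosl2, an AP-1 subunit, was at 153, 186, 168 and 222 CPM against 109, 109, 121 and 117 CPM (-0.70 ± 0.10, adjusted p = 0.0039). Both groups stood apart. The list had 3 falls without Δ/DN replicate 2, 4 without Δ/+ replicate 4 and 15 without Δ/DN replicate 3. Among transcription factors of myeloid and dendritic cells 4 of 62 rose and 5 fell, shares near those of all genes, with Ets2 at -0.93 ± 0.15 and Zeb2 at -0.67 ± 0.13.

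**Figure D5:**
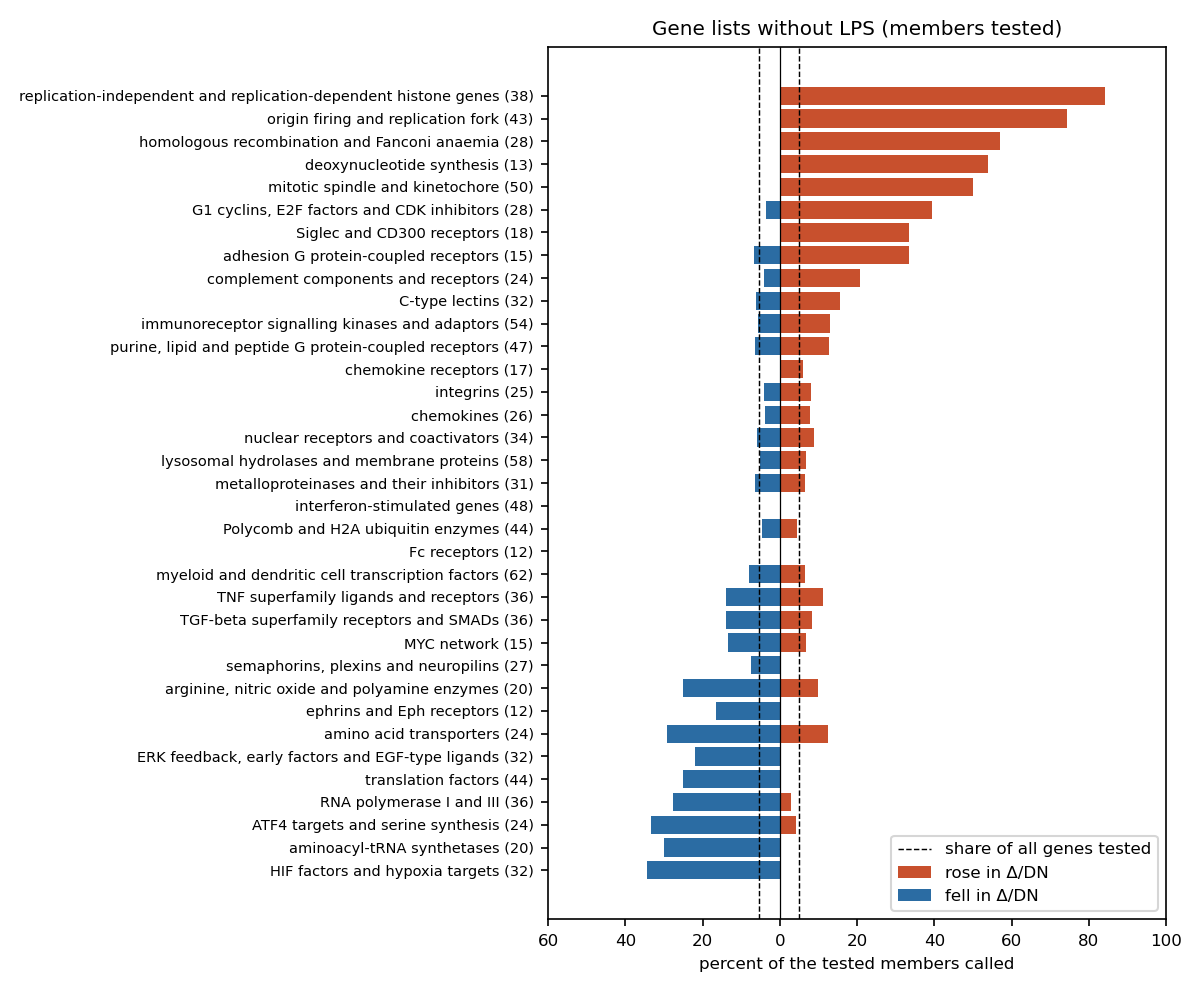
Bars give the percent of tested members of each list that rose (right) or fell (left) in Δ/DN US, with the number tested in brackets and dashed lines at 5.01% and 5.45%, the shares of all genes tested. Lists of histones, the replication fork and homologous recombination reach furthest right, and those of hypoxia targets, ATF4 targets and tRNA synthetases furthest left.

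Lists of surface receptors were mixed. Of 18 Siglec and CD300 receptors, paired receptors of myeloid cells, 6 rose and 0 fell (median 0.53), but 0 rose without Δ/DN replicate 2, 2 without replicate 4 of either genotype and 1 without Δ/+ replicate 1 or 2. Cd300c2 was at 19.4, 15.2, 24.3 and 23.2 CPM in Δ/+ and at 35.9, 35.9, 33.6 and 28.3 CPM in Δ/DN (0.73 ± 0.15, adjusted p = 0.0134). Cd300e was at 0.186 to 0.796 CPM against 1.81, 2.16, 0.52 and 0.317 CPM, with overlap through Δ/DN replicates 3 and 4. Of the 6 genes that rose in 1 stretch of 20 tested neighbours on chromosome 11, 5 were of the Cd300 family, whose members are similar and may share reads. Of 15 adhesion G protein-coupled receptors 5 rose, among them Adgre4 (2.22 ± 0.44). Of the others that rose, Adgrb1, Adgrf1 and Adgrl3 had means under 1 CPM in both genotypes. Adgrg5 had means of 0.127 CPM in Δ/+ and 2.19 ± 3.37 CPM (SD) in Δ/DN. Adgrl2, a latrophilin, fell from 49.6 to 126 CPM in Δ/+ to 22.7 to 32.4 CPM in Δ/DN (-1.92 ± 0.33, adjusted p = 0.00856). Without the library set term, or without Δ/DN replicate 2, 0 of the 15 were called higher. Of 24 complement genes 5 rose and 1 fell (1 rose without Δ/DN replicate 2 or without Δ/+ replicate 1, 2 or 4), with C1qa at 0.94 ± 0.14, although its groups overlapped and the adjusted p was 0.234 without the set term.

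Several lists were near the share of all genes or held few calls. Of 12 Fc receptors 0 were called by edgeR's quasi-likelihood test, 0 had an unadjusted p under 0.05, and DESeq2 and limma voom called 0. Of 26 chemokines 2 rose and 1 fell, of 17 chemokine receptors 1 rose and 0 fell, of 25 integrins 2 rose and 1 fell, and of 31 metalloproteinases and inhibitors 2 rose and 2 fell. Mmp19 and Mmp2, both matrix-degrading, went opposite ways. Mmp19 was at 738, 975, 414 and 1729.8 CPM in Δ/+ and at 227, 143, 357 and 138 CPM in Δ/DN (-2.22 ± 0.48, adjusted p = 0.0173). Mmp2 was at 4.26, 1.92, 2.36 and 0.71 CPM against 8.08, 26.1, 5.27 and 15.3 CPM (2.93 ± 0.55, adjusted p = 0.012). Among 44 Polycomb and H2A ubiquitin genes, the enzymes of the mark that MYSM1 removes, 2 rose (Ezh2 and Phf19) and 2 fell (Usp16 and Pcgf3). Among 58 lysosomal genes 4 rose and 3 fell, with Gpnmb, a glycoprotein of macrophages, at 369, 344, 298 and 506 CPM against 779, 998, 584 and 899 CPM (1.11 ± 0.20, adjusted p = 0.00834).

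Of 48 interferon-stimulated genes, the targets of interferon signalling, 0 were called by edgeR, 0 had an unadjusted p under 0.05, and DESeq2 and limma voom called 0. Their level varied widely between cultures. Summed over the list it was 4480, 3557, 5251 and 1332 CPM in Δ/+ and 2985, 2299, 11046 and 2943 CPM in Δ/DN. The lowest library was Δ/+ replicate 4 and the highest Δ/DN replicate 3, both of library set 3. The median log2 difference was 0.41 over all libraries and -0.81 within library set 2, where 22 of the 48 fell and 0 rose. Without both cultures 3 and 4 of Δ/DN 27 fell.

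Markers of the cell types that such cultures can hold were read in the same way. The conventional dendritic cell list (16 genes) had 6 that rose and 0 that fell, and summed to 2326 to 2673 CPM in Δ/+ and 2588 to 2783 CPM in Δ/DN. Leaving out single US libraries left 1 to 5 of them called higher and 0 to 1 lower. Cd24a was at 137, 106, 157 and 160.2 CPM against 223, 316, 201 and 267 CPM (0.84 ± 0.15, adjusted p = 0.00834). Xcr1 rose from at most 0.0463 CPM, near or under the floor of 3 reads, to 0.0864 to 0.388 CPM. Of 17 tested macrophage markers 4 rose (C1qa, C1qb, C1qc and Gpnmb) and 3 fell (Marco, Arg1 and Cd68), against 2 to 4 and 0 to 4 without single US libraries. The macrophage markers summed to 2472 to 2661 CPM in Δ/+ and 2636 to 2980 CPM in Δ/DN, and Vsig4 had 0 reads in all 8 libraries. Of 9 monocyte markers 0 rose and Nr4a1 fell, with sums of 1842 to 2243 CPM against 1096, 994, 1450.2 and 2402 CPM.

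Markers of some other lineages moved with Δ/DN replicates 2 and 4, but stromal and endothelial, eosinophil and osteoclast markers did not. The 19 neutrophil markers summed to 153 to 251 CPM in Δ/+ and to 200.4, 511, 241 and 1271 CPM in Δ/DN. Their median log2 difference was 1.04, but only Csf3r passed the test, at 4.95, 3.95, 4.49 and 5.74 CPM against 7.91, 10.9, 9.14 and 20.7 CPM (1.21 ± 0.24, adjusted p = 0.0111). Erythroid markers (2 of 6 tested rose) summed to 33.7 to 48.6 CPM in Δ/+ and 39.3 to 121 CPM in Δ/DN. Tfrc, the transferrin receptor of dividing cells, made up nearly all of that sum, with means of 40.2 ± 6.21 and 75.3 ± 34.0 CPM (SD, n = 4 each; adjusted p = 0.0753), and the globin genes had means under 1 CPM. Progenitor markers (2 of 8 rose) summed to 31.0 to 43.0 CPM and 36.1 to 63.9 CPM, with Cd34 at 0.786, 0.573, 1.53 and 0.256 CPM against 5.15, 15.8, 1.09 and 3.55 CPM. Kit, the stem cell factor receptor, held the largest part of the progenitor sum, with means of 16.9 ± 1.98 and 21.4 ± 8.99 CPM (SD, n = 4 each; adjusted p = 0.647). Mast cell and basophil markers (1 of 9 rose) summed to 23.6 to 28.0 CPM and 27.9 to 61.3 CPM, with Mcpt4 at 0. Stromal and endothelial markers (2 rose and 2 fell of 13) summed to 35.7 to 53.7 CPM and 17.2 to 28.0 CPM, with Lum at 0. Kdr, Lepr and Pecam1 held most of that sum, with means of 18.5, 13.2 and 9.47 CPM against 7.57, 5.83 and 4.69 CPM. Lepr and Pecam1 were those that fell, and Kdr was not called (adjusted p = 0.0654 in edgeR). Col1a2 and Sparc, with means under 1 CPM in both genotypes, were those that rose. The defining B and T cell genes Ighm, Igkc, Trac and Trbc2 had 0 reads in all 8 libraries.

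Neutrophil, erythroid and progenitor sums were highest in Δ/DN replicates 2 and 4, the libraries with the highest summed spindle levels. Whether they have a part in the rise of the cell cycle lists was not tested. In bulk RNA a change in the number of cells of a type cannot be told apart from a change in RNA per cell.

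Called genes were spread unevenly over levels and gene classes. Over 4 equal groups of genes by CPM per kilobase, from low to high, 3.17%, 7.66%, 5.45% and 4.32% of genes rose, and 1.24%, 3.17%, 8.93% and 11.2% fell. Over 4 equal groups by exon length, from short to long, 2.24%, 5.89%, 6.67% and 5.8% rose, and 1.66%, 4.7%, 7.66% and 10.5% fell. These groups cover 86.6% of tested genes, and whether the number of reads per gene has a part in these shares was not tested. Of protein-coding genes 6.67% rose and 7.66% fell, and of long noncoding RNAs 2.66% rose and 1.07% fell, among the latter Tug1 (-0.50 ± 0.09) and Gdap10 (-0.99 ± 0.16). Chromosome 6 had the next highest share of rises, 7.85%, with 8 of 20 consecutive tested genes from Zfp467 to Gpnmb, among them Gimap1, Gimap5, Gimap9 and Tmem176b. Of 40 tested genes around Mysm1 on chromosome 4, 3 were called (10.5% of all genes were). Cdkn2a rose there, and Jun (-0.53 ± 0.11) and Gm12696 fell.

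A neighbourhood on chromosome 9 around Jaml was picked after its values were seen. There Mpzl3, Jaml, Scn2b, Scn4b and Tmprss4 rose. Scn4b, a sodium channel subunit, was at 0.48, 0.274, 0.213 and 0.0698 CPM in Δ/+ and at 1.59, 3.61, 0.494 and 1.14 CPM in Δ/DN (3.06 ± 0.52, adjusted p = 0.00623). Scn2b rose by 1.81 ± 0.48 and Mpzl3 by 0.84 ± 0.22, and both were under 11 CPM throughout. Their calls were lost without the library set term (adjusted p = 0.0689 and 0.134) and in library set 2 (adjusted p = 0.0719 and 0.0863), and were kept in 2 and 4 of the 8 refits. The call of Tmprss4 was kept in 1. On either side Ube4a (81.7 to 104 CPM against 84.5 to 93.2 CPM) and Il10ra (107 to 127 CPM against 119.5 to 134 CPM) were not called.

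Promoter sequence was read for protein-coding genes, using RefSeq windows of 300 bases on GRCm38.p6, 250 before the most upstream start and 50 after it. Of 13799 coding genes tested 80.4% had such a window, as did 80.7% of the 921 that rose and 80.3% of the 1057 that fell. The E-box CACGTG, bound by MYC and related factors, was present in 9.69% of all windows, in 15.8% of those of genes that fell and in 6.46% of those of genes that rose. The CHR motif TTTGAA, bound by complexes that time mitotic genes, was in 12.7% of all windows, 156 of the 743 of genes that rose and 85 of the 849 of genes that fell. Of the 42 windows of spindle list genes 73.8% held it. An E2F motif (TTTGGCG and also TTTCGCG and also TTTCCCG) was in 9.43% of all, 13.5% of rising and 10.7% of falling genes, and the CCAAT box in 39.4%, 44.8% and 33.9%. Both strands were searched, matches of different motifs may overlap, and a match is a description of letters, not of binding.

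Stretches of 80 bases are shown for core genes with a match upstream of the start and for the spindle gene Ncapg2, 5′ to 3′ on the gene's strand, with the match in capitals. They show what a match looks like in genes that rose or fell, and Ncapg2, Lrrc58 and Golim4 were picked after their values were seen. For Cdkn2a the stretch with the E2F match lies before the most upstream start, at chr4:89294676-89294755 (minus strand), and for Tcf19 at chr17:35516980-35517059 (minus strand). The stretch with the CHR match of Ncapg2 lies at chr12:116405356-116405435 (plus strand). The stretches with the E-boxes lie at chr10:85185072-85185151 for Cry1 (minus strand), chr16:37868274-37868353 for Lrrc58 (plus strand) and chr3:75957094-75957173 for Golim4 (minus strand).
Cdkn2a: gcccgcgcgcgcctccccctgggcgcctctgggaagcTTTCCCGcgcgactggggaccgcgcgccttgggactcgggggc
Tcf19: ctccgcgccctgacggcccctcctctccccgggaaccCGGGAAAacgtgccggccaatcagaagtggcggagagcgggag
Ncapg2: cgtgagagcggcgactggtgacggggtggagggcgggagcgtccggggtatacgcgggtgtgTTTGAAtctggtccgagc
Cry1: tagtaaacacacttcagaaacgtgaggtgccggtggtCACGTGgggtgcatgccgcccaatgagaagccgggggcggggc
Lrrc58: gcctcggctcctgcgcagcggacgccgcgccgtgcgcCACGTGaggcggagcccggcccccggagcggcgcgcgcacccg
Golim4: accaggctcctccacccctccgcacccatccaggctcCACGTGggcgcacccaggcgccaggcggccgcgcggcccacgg

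Cdkn2a and Tcf19 rose as given above, and Ncapg2, a condensin II subunit, rose by 0.64 ± 0.14. The genes with an E-box fell. Cry1, a repressor of the circadian clock, had a log2 difference of -0.82, Lrrc58 one of -0.62 and Golim4, a Golgi membrane protein, one of -0.64.

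Values with LPS are set beside those without it for the core genes, from the same fit. Each culture gave a US and, but for Δ/+ replicate 4, an LPS library, so the comparisons are not independent. With LPS 8.6% of tested genes differed, 5.37% higher and 3.23% lower in Δ/DN. Sema3c differed by -2.94 with LPS (adjusted p = 0.0114), Epha4 by -3.04 (adjusted p = 0.00774) and Cdkn2a by 2.32 (adjusted p = 0.00513). Thbs1 differed by -0.55 with LPS (adjusted p = 0.143), Cd14 by -0.61 (adjusted p = 0.198) and Polr1a by 0.16 (adjusted p = 0.491). The test of the difference between the 2 genotype effects did not pass for any of these genes (adjusted p = 0.7, 0.977, 0.955, 0.239, 0.429 and 0.203). Over all 20865 genes that test called 1 (0.00479%), Emilin1, and 1873 had an unadjusted p under 0.05. Emilin1, an elastic fibre glycoprotein that binds TGF-beta precursor, was at 15.3, 14.2, 19.9 and 14.8 CPM in Δ/+ US and at 24.6, 24.2, 21.2 and 28.8 CPM in Δ/DN US (0.63 ± 0.15, adjusted p = 0.0222). With LPS it was at 32.4, 30.7 and 23.1 CPM in Δ/+ and at 13.1, 13.8, 10.7 and 15.8 CPM in Δ/DN (-1.09 ± 0.17, adjusted p = 0.00595). The groups did not overlap in either state, with opposite orders. The call without LPS was kept in only 2 of the 8 refits. In edgeR it was lost within library set 2 (adjusted p = 0.0753) and without Δ/DN cultures 3 and 4 (adjusted p = 0.0668).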

How the data were processed

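The files hold read counts per gene, deposited by the authors as 1 featureCounts table per library, and used as raw counts. Per the submitters' processing notes, the tools were HISAT2 2.2.1, Trimmomatic 0.33, bedtools, FastQC, edgeR and featureCounts, and the build GRCm39. Their roles, strand, pair use and annotation are not given in the sources used here. The members and gene lists were chosen with earlier results of these data known.

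Counts of all 15 libraries were fitted in edgeR 4.0.16 (R 4.3.3) with TMM scaling, a filter at a minimum count of 10, robust quasi-likelihood dispersion, and terms for 4 groups and the library set. P-values were adjusted by Benjamini-Hochberg over 20865 genes and called under 0.05. Levels are CPM after TMM, and principal components used log2 CPM with a prior count of 2. The script was tested on simulated data with 200 changed genes. Alternatives tried were DESeq2 1.42.0, limma 3.58.1, other scaling, no filter, no set term, library set 2 alone, a replicate block and leaving out libraries. Leaving out libraries with the set term also removed was added after seeing the data.

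Of 50554 genes 96.8% matched RefSeq on GRCm38.p6, used for names, order and promoters; unmatched genes took 1.52% of reads. The deposited length of a gene exceeded the GENCODE exon union in 60.2% of genes, so CPM per kilobase used that exon union in place of the deposited length. Total counts ran from 37256651 to 93291582 in US libraries, and counting precision follows from them.

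Genes were named by rule: the 12 largest log2 differences each way among genes called in the same direction in all 8 refits and in set 2, with a mean of at least 1 CPM; the 5 most abundant called genes each way with at least 0.5 log2 units; the 3 called members with the smallest p in each of 48 lists; genes whose effect differed with LPS; Mysm1 and called genes among 20 tested on each side; 3 noncoding genes each way; and library checks. Clone and predicted names were left out. Others are said to be chosen after their values were seen, or are given as counted members of a list.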

Additional observations from a re-analysis of the deposited data

Results flagged for a closer look

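Of 66 groups of 4 libraries, those of 33 named genes in each genotype, 8 held a library far from the other 3, where the gap to the nearest library, as a share of the group's range, exceeded Dixon's critical value. That value is set for about 1 in 20 groups of normally distributed values. CPM of genes named for their differences need not be so distributed, and each of the 8 was the highest of its group. The 8 are therefore no measure of an excess. In Δ/DN, replicate 3 was the high library for Sema3c (1.01 CPM, next 0.259), Hilpda (3.60 CPM, next 2.34) and Cd14 (161 CPM, next 61.5), each a gene that fell. Replicate 1 was the high Δ/DN library for Plet1 (512 CPM, next 387). In Δ/+, replicate 3 was high for Cdkn2a (0.694 CPM, next 0.346) and Tcf19 (2.36 CPM, next 1.44), replicate 4 for Fosl1 (4.32 CPM, next 1.62) and replicate 2 for B3galt2 (24.8 CPM, next 17.0).

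The genotype difference of Emilin1 had opposite signs with and without LPS, though its call without LPS was kept in only 2 of the 8 refits. The difference with LPS minus that without it was -1.72 ± 0.22 on the log2 scale (adjusted p = 0.0327 for the interaction term in edgeR's quasi-likelihood test).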

How the results depend on the processing

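The 2184 called genes, 1046 higher and 1138 lower in Δ/DN, numbered 3359 (1654 higher) with DESeq2, 1270 (679 and 591) without the library set term, and 1271 (410 higher) in library set 2 alone. With the 8 US libraries alone there were 1556 (866 higher and 690 lower). With limma voom and culture as a random effect there were 2635 (1330 higher and 1305 lower). Without both libraries of Δ/DN culture 3 there were 3705 (2138 lower), and without cultures 3 and 4 there were 1417 (477 higher). At an adjusted p under 0.01 there were 281 (90 and 191), and at 1 log2 unit or more 657 (502 and 155). Leaving out 1 US library gave 174 to 3403 calls, 54 to 1435 higher and 120 to 1968 lower. With the set term also removed, an alternative added after seeing the data, the counts were 555 (205 and 350) without Δ/+ replicate 1, 49 (17 and 32) without replicate 2, 650 lower without replicate 3 and 164 (67 and 97) without replicate 4. They were 652 (422 and 230) without Δ/DN replicate 1, 93 (43 and 50) without replicate 2 and 125 (50 and 75) without replicate 4; over all 8 they ran from 49 to 2590, from 17 to 1128 higher and from 32 to 1462 lower. The genes whose effect differed with LPS numbered 1 by edgeR and 2 by limma voom with culture as a random effect. The causes were not tested.

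Deviations of same-numbered US libraries of the 2 genotypes correlated at 0.146, 0.016, -0.042 and 0.121. Those of differently numbered libraries correlated at -0.133 to 0.114, so these values do not settle whether replicate numbers pair the samples. With the replicate block 0 genes were called by edgeR, 0 higher and 0 lower, and 4078 had an unadjusted p under 0.05.

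None of the 144 called genes taken by the naming rule changed direction with DESeq2, limma voom, RLE scaling, no filter, no set term, set 2 alone, US libraries alone, or without single libraries or Δ/DN cultures 3 and 4; 435 of these values lost the call. Single genes were not counted for the replicate block or for libraries left out without the set term. Il10ra and Ube4a, not called, changed sign in set 2 (-0.07 and 0.00098). Lists of DNA synthesis and division depended on single libraries. Genes near 3 reads per library have the least counting precision.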
